A study of Mus musculus with 9 samples.

Results

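Cdkn1a, 6 other well-known targets of the transcription factor p53 (Mdm2, Ccng1, Phlda3, Sesn1, Zmat3 and Trp53inp1) and the 3 Gadd45 genes were followed through mouse cerebral cortex after a transient stroke. These 10 genes were chosen by symbol out of the 52550 genes quantified, and all 10 passed the filter on low values, which kept 17080 genes. RNA came from 9 libraries, 3 in each of 3 groups, all from male C57BL/6N mice aged 9 to 12 weeks. In the knockdown group, locked nucleic acid antisense oligos against the enhancer RNA eRNA_06347 were given through the lateral ventricles, the middle cerebral artery was occluded with a filament for 1 h (MCAO), and the infarcted cortex was taken after 6 h of reperfusion. The control oligo group had a negative control oligo and the same MCAO and reperfusion. The sham group had the neck incision without the filament, and the labels give it no oligo. The sham libraries are earlier data of the same laboratory, so the occlusion, the oligo delivery and the data set cannot be told apart in any comparison with sham. The labels give 3 mice a group without saying that each library is a single animal, so p-values measure the spread between these libraries. Replicates carry the numbers of the labels, 2, 3 and 4 in the knockdown group and 1, 2 and 3 in the others, and values are given in that order. eRNA_06347 itself was not analysed here.

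p53 is held at a low level in unstressed cells by Mdm2, a ubiquitin ligase that is itself a p53 target, and damage signals release it from this loop. Its best known target, Cdkn1a (p21), binds cyclin-dependent kinases and stops the cell cycle, and in postmitotic neurons it is induced by many kinds of stress. The Gadd45 proteins are small, acidic stress proteins that bind Cdkn1a, Pcna and the kinase Map3k4, which feeds the p38 and JNK cascades. Gadd45b is also an activity-induced gene in neurons, and Gadd45a is a classical p53 target.

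The sequences just before the transcription starts are shown for Cdkn1a, the most abundant member in MCAO cortex, for the 3 Gadd45 genes, so that the family can be compared, and for Ccng1, the only member called lower in MCAO cortex as deposited. They are RefSeq sequences of GRCm38.p6, each the 250 bases before a start on the gene's own strand, and 8 of the 10 members matched such a window. Capitals mark a full p53 site in Cdkn1a and Ccng1, an octamer (ATTTGCAT) in Gadd45a and Gadd45g, and a TATA box (TATAAA) or an E-box (CACGTG) in Gadd45b and Gadd45g. All motifs were searched on both strands, and no 2 of those in capitals overlap. Cdkn1a has 2 annotated starts, and the lines give the window of each.
Cdkn1a upstream start, chr17:29090729-29090978, plus strand: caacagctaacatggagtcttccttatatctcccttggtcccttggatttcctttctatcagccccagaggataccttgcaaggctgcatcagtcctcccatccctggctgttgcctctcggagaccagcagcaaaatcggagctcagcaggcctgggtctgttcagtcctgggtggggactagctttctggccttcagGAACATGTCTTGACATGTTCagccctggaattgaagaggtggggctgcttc
Cdkn1a main start, chr17:29093519-29093768, plus strand: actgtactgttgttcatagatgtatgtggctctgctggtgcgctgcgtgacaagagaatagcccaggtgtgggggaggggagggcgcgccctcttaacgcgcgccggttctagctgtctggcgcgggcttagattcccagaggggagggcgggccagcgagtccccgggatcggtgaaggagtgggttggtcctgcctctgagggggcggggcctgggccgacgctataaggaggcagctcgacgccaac
Ccng1, chr11:40755287-40755536, minus strand: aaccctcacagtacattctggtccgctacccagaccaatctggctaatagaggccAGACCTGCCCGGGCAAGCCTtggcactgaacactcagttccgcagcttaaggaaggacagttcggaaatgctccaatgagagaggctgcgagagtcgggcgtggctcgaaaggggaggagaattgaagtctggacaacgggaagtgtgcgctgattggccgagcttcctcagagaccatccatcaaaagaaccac
Gadd45a, chr6:67037408-67037657, minus strand: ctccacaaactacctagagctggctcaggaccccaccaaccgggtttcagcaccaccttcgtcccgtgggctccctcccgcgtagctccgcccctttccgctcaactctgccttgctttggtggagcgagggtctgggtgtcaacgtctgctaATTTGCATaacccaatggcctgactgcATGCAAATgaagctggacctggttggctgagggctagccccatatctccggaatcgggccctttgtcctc
Gadd45b, chr10:80929841-80930090, plus strand: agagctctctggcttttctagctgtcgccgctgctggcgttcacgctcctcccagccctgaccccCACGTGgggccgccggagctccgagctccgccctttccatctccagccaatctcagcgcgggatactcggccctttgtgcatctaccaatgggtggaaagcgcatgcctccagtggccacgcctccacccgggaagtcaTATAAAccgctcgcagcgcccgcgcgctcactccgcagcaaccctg
Gadd45g, chr13:51846425-51846674, plus strand: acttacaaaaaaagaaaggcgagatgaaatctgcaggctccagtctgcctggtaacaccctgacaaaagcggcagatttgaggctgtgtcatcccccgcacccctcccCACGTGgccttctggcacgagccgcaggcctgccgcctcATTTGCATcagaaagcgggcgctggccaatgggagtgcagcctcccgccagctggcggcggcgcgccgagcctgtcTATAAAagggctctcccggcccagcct

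A full p53 site was counted as a pair of p53 half-sites with no spacer and at most 1 letter off the consensus. Only 25 of the 32536 mouse promoter windows of this length held one, or 0.0768%, and the upstream Cdkn1a window and the Ccng1 window were among them. The Cdkn1a site lay at positions -51 to -32, counted back from -1 just before the upstream start, and the Ccng1 site at -195 to -176 before its own. A half-site, present in 7.12% of windows, also occurred in the windows of Mdm2, of the downstream Sesn1 start and of Gadd45a. The TATA box, in 12.3% of windows, and the E-box, in 6.04%, were both found in Gadd45b and Gadd45g. The octamer, in 1.62% of windows, occurred 2 times in Gadd45a and 1 time in Gadd45g. Neither TGACGTCA (1.56% of windows) nor TGANTCA (6.73%) occurred in a member's window. The motifs were chosen with these promoters in view, and a match is a description of letters, not of binding.

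Cdkn1a (ENSMUSG00000023067, chr17:29090979-29100722 of GRCm38, plus strand) was the most abundant of the 10 genes in both MCAO groups and the least abundant in sham cortex. It stood at 147, 151 and 135 TPM (a length-corrected share of all transcripts in a library, summed over a gene's transcripts) in knockdown libraries, at 159, 142 and 143 TPM in control oligo libraries and at 3.73, 3.50 and 5.01 TPM in sham libraries. The 6 MCAO libraries lay close together and far above all 3 sham libraries. Its mean was 148 ± 9.61 TPM in control oligo cortex and 4.08 ± 0.812 TPM in sham (SD, n = 3 each), a ratio of 36.3. On the log2(TPM + 1) scale this was a change of 4.88 (SE 0.16, 95% interval 4.53 to 5.24, adjusted p = 1.32e-07, limma over all genes kept), the 49th largest rise of the 17080 genes. Knockdown cortex averaged 144 ± 8.58 TPM, and its change against sham was 4.85 (SE 0.15, adjusted p = 4.51e-07). Of the summed TPM of the 10 genes, Cdkn1a held 25.3 ± 1.78% in knockdown cortex, 27.8 ± 0.543% in control oligo cortex and 2.59 ± 0.593% in sham cortex.

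Most genes were higher in MCAO libraries on the deposited scale, so the changes against sham are also given after median-ratio scaling, which brings the middle gene of every library to the same level. The median log2 change of all genes kept was 0.56 in control oligo cortex against sham and 0.61 in knockdown cortex against sham, and after scaling it was 0.0098 and 0.014 in the same order. The scaled change of Cdkn1a was 4.30 in control oligo cortex (adjusted p = 4.26e-06) and 4.21 in knockdown cortex (adjusted p = 6.52e-06).

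**Figure D1:**
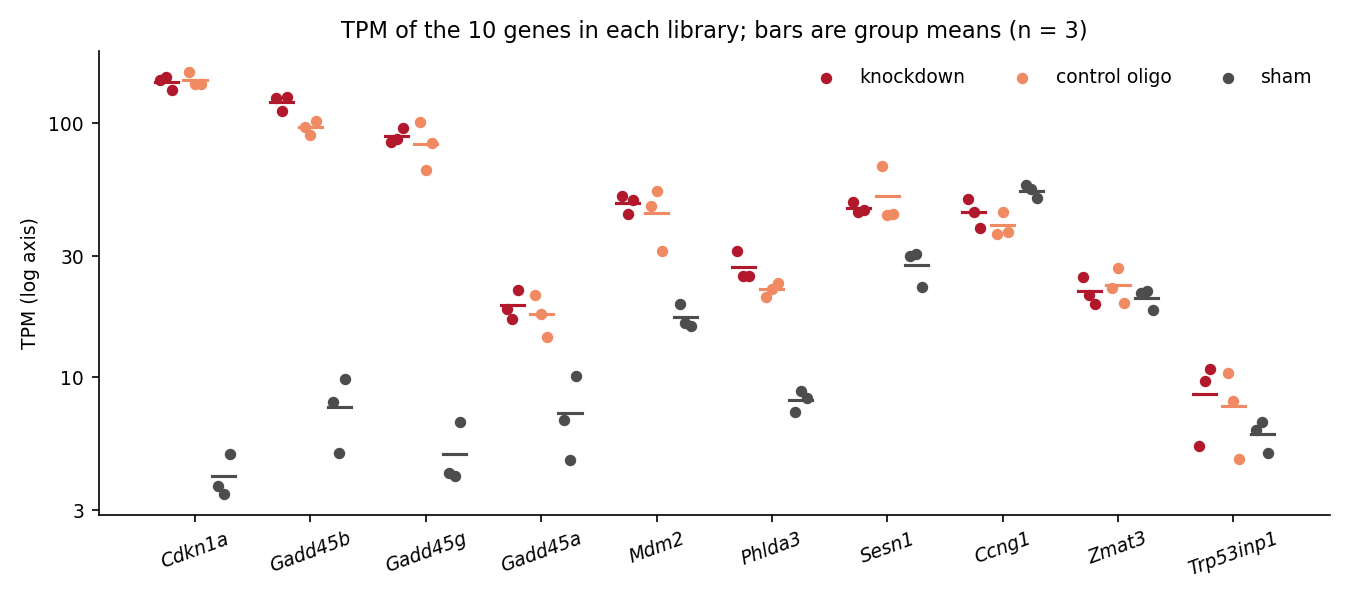
TPM of each of the 10 genes on a log axis, with 1 point per library and a line at the group mean, for knockdown, control oligo and sham cortex from left to right. Cdkn1a lies between 135 and 159 TPM in the 6 MCAO libraries and between 3.50 and 5.01 TPM in sham, while Zmat3 and Trp53inp1 overlap between all groups.

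The negative regulator Mdm2 (ENSMUSG00000020184, chr10:117688875-117710758, minus strand), summed over its transcripts, was also higher after MCAO. Mdm2 was at 51.9, 43.9 and 49.95 TPM in knockdown libraries, 47.3, 53.9 and 31.3 TPM in control oligo libraries and 19.4, 16.4 and 15.9 TPM in sham libraries. Control oligo replicate 3 was the lowest MCAO library and still lay above every sham library. The log2 change was 1.28 in control oligo cortex (SE 0.21, adjusted p = 0.000851, 0.64 after scaling with adjusted p = 0.00942) and 1.45 in knockdown cortex (adjusted p = 0.000102, 0.75 after scaling with adjusted p = 0.00167).

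Phlda3 and Sesn1 restrain growth signalling. Phlda3 (ENSMUSG00000041801, chr1:135766119-135769136, plus strand), a membrane-lipid binding protein that competes with the kinase Akt, was at 31.6, 25.2 and 25.1 TPM in knockdown libraries, 20.7, 22.4 and 23.6 TPM in control oligo libraries and 7.29, 8.82 and 8.29 TPM in sham libraries. None of the 3 groups overlapped another. Its change against sham was 1.35 in control oligo cortex (SE 0.15, adjusted p = 0.000125) and 1.63 in knockdown cortex (adjusted p = 9.51e-05), and after scaling 0.73 (adjusted p = 0.00483) and 0.96 (adjusted p = 0.00122) in the same order.
Sesn1 (ENSMUSG00000038332, chr10:41809935-41908424, plus strand), a sestrin that lowers mTORC1 activity, was at 48.9, 44.7 and 45.4 TPM in knockdown libraries, 68.0, 43.5 and 44.0 TPM in control oligo libraries and 30.1, 30.5 and 22.7 TPM in sham libraries. Control oligo replicate 1 stood above the other MCAO libraries, which lay close together above sham. Sesn1 was called higher as deposited, by 0.86 in control oligo cortex (SE 0.21, adjusted p = 0.00641) and by 0.73 in knockdown cortex (adjusted p = 0.00344). After scaling neither call held, with changes of 0.21 (adjusted p = 0.394) and 0.025 (adjusted p = 0.856).

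Ccng1, Zmat3 and Trp53inp1 did not follow Cdkn1a. Ccng1 (ENSMUSG00000020326, chr11:40748552-40755311, minus strand), which encodes cyclin G1, was at 50.5, 44.7 and 38.6 TPM in knockdown libraries, 36.7, 44.6 and 37.5 TPM in control oligo libraries and 57.2, 55.0 and 50.7 TPM in sham libraries. It was the most abundant of the 10 genes in sham cortex, and no MCAO library reached the lowest sham library. The log2 change was -0.45 in control oligo cortex (SE 0.14, 95% interval -0.76 to -0.14, adjusted p = 0.0173) and -0.29 in knockdown cortex, which did not pass (95% interval -0.61 to 0.038, adjusted p = 0.105). The first of these calls was lost without sham replicate 1 (-0.41, adjusted p = 0.0784), without sham replicate 2 (-0.44, adjusted p = 0.0593) and without control oligo replicate 1 (-0.40, adjusted p = 0.065). After scaling both comparisons passed, at -1.10 (adjusted p = 8.42e-05) in control oligo cortex and -0.99 (adjusted p = 0.000287) in knockdown cortex.
Zmat3 (ENSMUSG00000027663, chr3:32334792-32366014, minus strand), a zinc finger protein that binds RNA, was at 24.9, 21.0 and 19.4 TPM in knockdown libraries, 22.5, 26.9 and 19.7 TPM in control oligo libraries and 21.5, 21.8 and 18.4 TPM in sham libraries. The groups overlapped, and the change was 0.15 in control oligo cortex (95% interval -0.22 to 0.52, adjusted p = 0.438) and 0.077 in knockdown cortex (adjusted p = 0.658). Scaling turned its direction, to -0.49 (adjusted p = 0.00434) and -0.61 (adjusted p = 0.00269).
Trp53inp1 (ENSMUSG00000028211, chr4:11156431-11174379, plus strand), a stress protein of cell death and autophagy, was the least abundant member in MCAO cortex. It was at 5.37, 9.69 and 10.8 TPM in knockdown libraries, 10.4, 8.08 and 4.78 TPM in control oligo libraries and 6.20, 6.71 and 5.04 TPM in sham libraries. Each MCAO group had 1 low library, within the sham range in knockdown and below it in control oligo, and neither comparison passed (0.28 with adjusted p = 0.364 in control oligo cortex, 0.42 with adjusted p = 0.175 in knockdown cortex). It was called higher without control oligo replicate 3 (0.55, adjusted p = 0.0327) and without knockdown replicate 2 (0.69, adjusted p = 0.0163), while scaling turned both changes negative, to -0.31 and -0.21.

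The Gadd45 genes were 3 of the 7 members called higher, and 2 of them came next to Cdkn1a. Gadd45b (ENSMUSG00000015312, chr10:80930073-80932204, plus strand) was at 126, 111 and 127 TPM in knockdown libraries, 96.3, 90.1 and 102 TPM in control oligo libraries and 7.99, 5.03 and 9.84 TPM in sham libraries. All knockdown libraries lay above all control oligo libraries, and both sets lay far above sham. The change against sham was 3.54 in control oligo cortex (SE 0.21, 95% interval 3.05 to 4.02, adjusted p = 6.2e-06), a ratio of means of 12.6, and 3.87 in knockdown cortex (SE 0.22, adjusted p = 1.01e-05), a ratio of 15.9.
Gadd45g (ENSMUSG00000021453, chr13:51846678-51848468, plus strand) was at 84.4, 86.6 and 95.7 TPM in knockdown libraries, 101, 65.4 and 83.4 TPM in control oligo libraries and 4.20, 4.09 and 6.66 TPM in sham libraries. The control oligo libraries spanned the knockdown range, and sham stayed under 10 TPM for both genes. The change against sham was 3.82 in control oligo cortex (SE 0.22, 95% interval 3.32 to 4.32, adjusted p = 4.64e-06) and 3.93 in knockdown cortex (SE 0.18, adjusted p = 4.66e-06). By size of rise in control oligo cortex, Gadd45g was 87th and Gadd45b 100th of all genes kept. After scaling the changes in control oligo cortex were 3.22 for Gadd45g (adjusted p = 8.54e-05) and 2.92 for Gadd45b (adjusted p = 0.000109), and in knockdown cortex they were 3.28 (adjusted p = 5.57e-05) and 3.19 (adjusted p = 9.8e-05).

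Gadd45a (ENSMUSG00000036390, chr6:67035096-67037457, minus strand), the p53 target of the family, moved much less. It was at 18.6, 16.9 and 22.1 TPM in knockdown libraries, 21.0, 17.7 and 14.4 TPM in control oligo libraries and 6.82, 4.72 and 10.2 TPM in sham libraries. The MCAO libraries all lay above sham, with sham replicate 3 closest to them. The change was 1.22 in control oligo cortex (SE 0.26, adjusted p = 0.00326) and 1.34 in knockdown cortex (adjusted p = 0.00216). Neither passed after scaling, at 0.62 (adjusted p = 0.104) in control oligo and 0.69 (adjusted p = 0.0911) in knockdown cortex. When scaled coverage of the 3′ stretch of the transcripts alone was used, the changes were 0.073 (adjusted p = 0.826) in control oligo and 0.22 (adjusted p = 0.478) in knockdown cortex. The value of Gadd45a carries some uncertainty because E230016M11Rik lies over it on the other strand and the quantification named no strand option. That gene reached at most 2.23 TPM in knockdown, 3.06 TPM in control oligo and 2.28 TPM in sham libraries.

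The makeup of the Gadd45 family therefore differed between MCAO and sham cortex. The 3 genes together held 229 ± 14.7 TPM in knockdown, 197 ± 22.5 TPM in control oligo and 19.8 ± 6.46 TPM in sham cortex (SD, n = 3 each). Gadd45a was 8.36 ± 0.619% of this sum in knockdown cortex, 9.02 ± 1.61% in control oligo cortex and 36.0 ± 2.01% in sham cortex. Its share in the 6 MCAO libraries did not exceed 10.2%, and its lowest share in sham was 34.1%. Gadd45b held 52.9 ± 1.84%, 49.1 ± 4.29% and 38.4 ± 3.12% in knockdown, control oligo and sham cortex, and Gadd45g held 38.8 ± 1.75%, 41.9 ± 4.20% and 25.5 ± 3.76%. These shares within a library do not depend on a scaling of the whole library, but they sum all transcripts of a gene. The protein-coding form Gadd45a-201 held 72.5 to 78.7% of Gadd45a TPM in knockdown and 67.1 to 82.8% in control oligo libraries. In sham libraries it held 80.8, 32.3 and 63.9%, and the rest was in forms annotated as retaining an intron. The family shares were not tested, nor was the part of library kind in them.

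**Figure D2:**
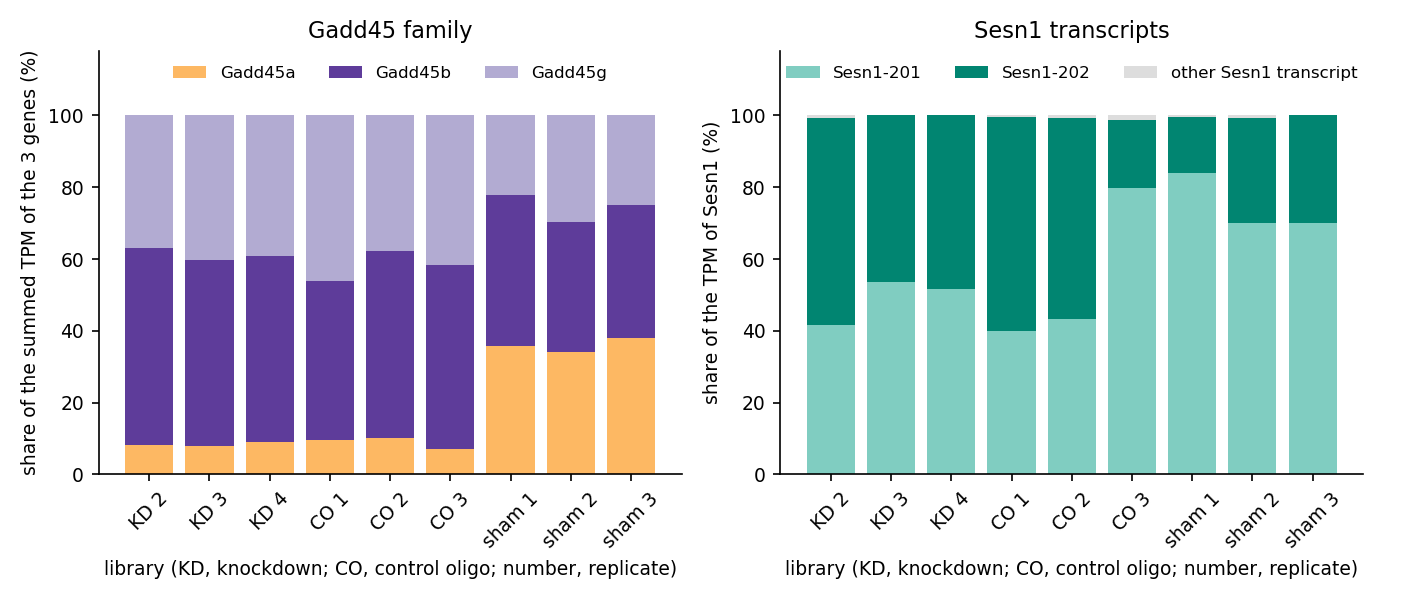
Stacked bars, 1 per library, of the share of the summed Gadd45 TPM held by each of the 3 genes (left) and of the share of Sesn1 TPM held by each of its transcripts (right), in percent, for knockdown (KD), control oligo (CO) and sham libraries. Gadd45a makes up 7.20 to 10.2% of the family in the MCAO libraries and 34.1 to 38.1% in sham libraries, and Sesn1-201 holds 40.1 to 79.8% of Sesn1 in the MCAO libraries and 70.0 to 83.9% in sham libraries.

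Across the 10 genes, 7 were called higher and 1 lower (Ccng1) in control oligo cortex against sham, where 52.6% of all genes kept were called higher and 12.8% lower. In knockdown cortex against sham, 7 were called higher and 0 lower, with 52.7% of all genes higher and 12.5% lower. Both comparisons share the sham libraries. After scaling, 5 members were higher (Cdkn1a, Gadd45b, Gadd45g, Phlda3 and Mdm2) and 2 were lower (Ccng1 and Zmat3) in each. The share of all genes called after scaling was 26.1% higher and 29.2% lower in control oligo cortex, and 22.7% higher and 27.1% lower in knockdown cortex. The median change of the members was 1.25 against 0.56 for all genes in control oligo cortex and 1.39 against 0.61 in knockdown cortex. After scaling the member medians were 0.63 and 0.72, beside 0.0098 and 0.014 for all genes.

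**Figure D3:**
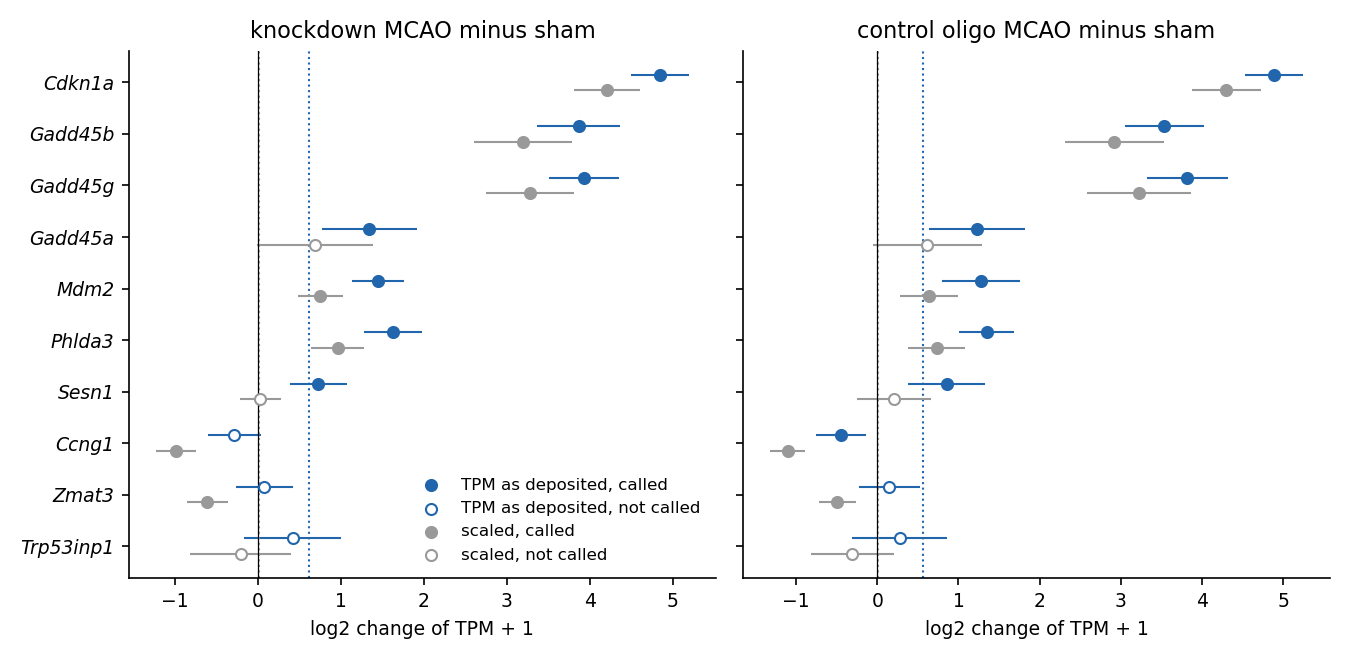
Log2 change of each member against sham with its 95% interval, in knockdown and control oligo cortex, as deposited (blue) and after median-ratio scaling (grey). Filled points were called, and the dotted lines mark the median of all genes, blue as deposited and grey after scaling. Cdkn1a, Gadd45g and Gadd45b lie between 2.92 and 4.88 on both scales, and Ccng1 lies below 0.

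The order of levels changed with surgery and data set. In knockdown cortex it ran Cdkn1a, Gadd45b, Gadd45g, Mdm2, Sesn1, Ccng1, Phlda3, Zmat3, Gadd45a and Trp53inp1, and the libraries of Mdm2 and Sesn1, of Sesn1 and Ccng1, and of Zmat3 and Gadd45a overlapped. In control oligo cortex Cdkn1a came before Gadd45b, Gadd45g, Sesn1, Mdm2 and Ccng1, whose neighbours overlapped, then Zmat3, Phlda3 and Gadd45a, which also overlapped, and last Trp53inp1. In sham cortex Ccng1 came first, then Sesn1, then Zmat3 and Mdm2, whose libraries overlapped. Phlda3, Gadd45b, Gadd45a, Trp53inp1, Gadd45g and Cdkn1a followed in sham, and each overlapped its neighbour. Summed TPM of the 10 genes was 571 ± 17.1 in knockdown, 534 ± 42.9 in control oligo and 158 ± 5.96 in sham cortex.

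The comparison of knockdown with control oligo asks what the antisense oligo against eRNA_06347 did to these genes within MCAO cortex. No member was called in either direction (limma, 10 adjusted p-values of 1), and 2 of all 17080 genes, or 0.0117%, were. At an unadjusted p under 0.05 there were 321 of the 17080 genes, and Gadd45b was the only member among them. That share of all genes was below 0.05, the share such a threshold passes where no gene differs. Gadd45b averaged 121 ± 8.55 TPM in knockdown and 96.2 ± 6.05 TPM in control oligo cortex, a log2 change of 0.33 (SE 0.12, 95% interval 0.035 to 0.63, unadjusted p = 0.0335, limma). After scaling its interval was -0.086 to 0.64 around 0.28, and the groups overlapped.
Phlda3 averaged 27.3 ± 3.70 TPM in knockdown and 22.2 ± 1.46 TPM in control oligo cortex, a change of 0.28 (95% interval -0.11 to 0.67). It also overlapped after scaling. Gadd45b and Phlda3 were the 2 members whose knockdown libraries all lay above the control oligo libraries, as did those of 3.60% of all genes, and no member lay wholly below, as did 1.80%.
For Cdkn1a the interval of the change was the narrowest of the 10, -0.32 to 0.25 around -0.035. The intervals were -0.32 to 0.55 for Gadd45g, -0.37 to 0.61 for Gadd45a, -0.36 to 0.69 for Mdm2, -0.61 to 0.35 for Sesn1, -0.22 to 0.55 for Ccng1 and -0.52 to 0.37 for Zmat3. Trp53inp1 had the widest, -0.70 to 0.99. The members' median change was 0.13, beside 0.059 for all genes.

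**Figure D4:**
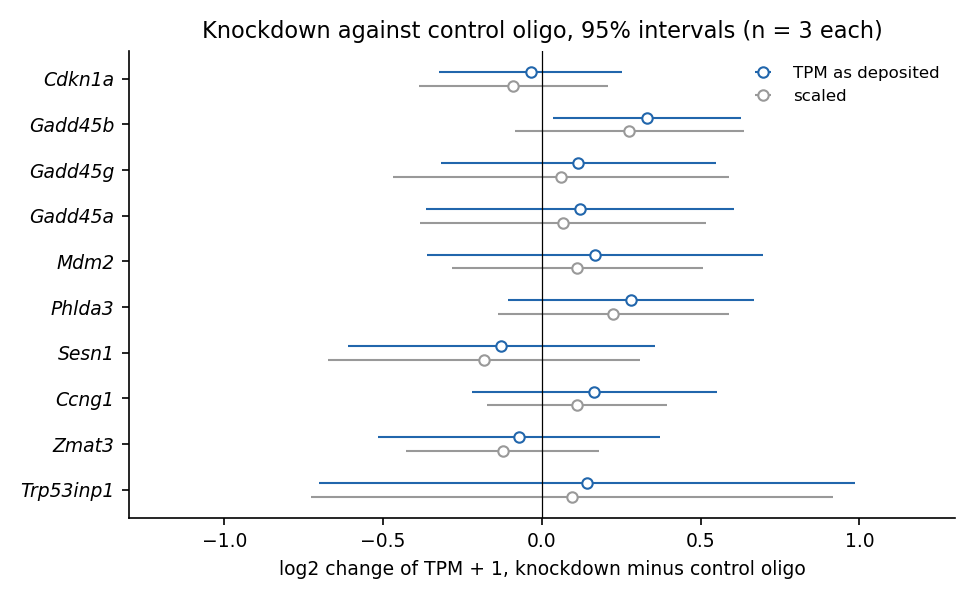
Log2 change of each member in knockdown against control oligo cortex with its 95% interval, as deposited and after scaling. All intervals but that of Gadd45b as deposited (0.035 to 0.63) include 0.

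The genes around the members were taken from 5 lists, 95 genes in all, of which 86 passed the filter on low values. Of p53 and its direct regulators, 3 of 14 kept genes were called higher and 3 lower in control oligo cortex against sham, with a median change of 0.12. After scaling 2 were higher and 7 lower, with a median of -0.49. The share of genes called higher was thus below the 52.6% of all genes as deposited, and below the 26.1% after scaling. Of all genes 12.8% were called lower as deposited and 29.2% after scaling. Trp53, which encodes p53, was at 26.5 ± 4.72 TPM in control oligo and 3.50 ± 0.653 TPM in sham cortex, a change of 2.61 (adjusted p = 1.72e-05, 2.04 after scaling). Kat5, an acetyltransferase of p53, was also called higher (1.10, adjusted p = 0.000523, 0.45 after scaling). The damage-sensing kinases Atm (-1.60, adjusted p = 0.000744) and Atr (-0.88, adjusted p = 0.00833) were called lower, and their scaled changes were -2.13 and -1.44. In knockdown cortex against sham 3 of these 14 were higher and 3 lower, beside 52.7% and 12.5% of all genes.

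Of the other p53 target genes, 23 of 32 were called higher and 0 lower in control oligo cortex, where 52.6% of all genes were higher and 12.8% lower, and their median change was 0.94. After scaling 13 were higher and 4 lower, with a median of 0.40, beside 26.1% and 29.2% of all genes. Fas, a death receptor, was at 12.5 ± 4.37 TPM in control oligo and 1.03 ± 0.690 TPM in sham cortex (2.74, adjusted p = 0.000123, 2.33 after scaling), and Pmaip1 (Noxa), a BH3-only death protein, at 10.6 ± 2.55 and 1.39 ± 0.595 TPM (2.29, adjusted p = 0.00011, 1.83 after scaling). Trp53inp2, an autophagy factor, changed by 1.64 (adjusted p = 3.6e-05, 0.99 after scaling), and the ribosomal protein gene Rps27l by 1.20 (adjusted p = 0.000115, 0.56 after scaling). In knockdown cortex against sham, 22 of the 32 were higher and 0 lower, beside 52.7% and 12.5% of all genes.

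The other inhibitors of cyclin-dependent kinases had smaller changes than Cdkn1a in control oligo cortex against sham. Of the 6 kept, 4 were called higher as deposited and 0 after scaling, with medians of 0.63 and 0.24, and 0 were called lower on either scale. Of all genes 52.6% were higher and 12.8% lower as deposited, with a median of 0.56. After scaling 26.1% of all genes were higher and 29.2% lower, with a median of 0.0098. The changes of those 4 were 0.81 for Cdkn2d (adjusted p = 0.00196, 0.16 after scaling), 0.80 for Cdkn2c (adjusted p = 0.00502, 0.35 after scaling), 0.73 for Cdkn1b (adjusted p = 0.0329, 0.11 after scaling) and 0.52 for Cdkn2b (adjusted p = 0.0445, 0.37 after scaling). Cdkn2b was near the floor, at 0.851, 0.307 and 1.07 TPM in control oligo and 0.201, 0.163 and 0.205 TPM in sham libraries. Cdkn1b was at 24.9, 11.6 and 20.7 TPM in control oligo libraries, with replicate 2 close to sham at 10.8, 10.1 and 10.8 TPM. In knockdown cortex against sham 5 of the 6 were higher, 2 after scaling, beside 52.7% and 22.7% of all genes.
Among cyclins, their kinases and replication genes 16 of 23 were higher and 0 lower in control oligo cortex, with a median of 0.82, beside 52.6% and 12.8% of all genes. After scaling 8 were higher and 2 lower, beside 26.1% and 29.2% of all genes, and the median was 0.34. Pcna, the replication clamp that Cdkn1a and the Gadd45 proteins bind, was at 52.9 ± 2.79 TPM in control oligo and 24.4 ± 0.626 TPM in sham cortex (1.08, adjusted p = 0.000144, 0.44 after scaling). Cdk4 changed by 1.15 (adjusted p = 0.000684, 0.51 after scaling) and Cdk5, a kinase of neurons, by 1.00 (adjusted p = 0.000537, 0.34 after scaling).

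The p38 and JNK kinases that act below the Gadd45 proteins were called higher in 4 and lower in 2 of 11 cases in control oligo cortex, beside 52.6% and 12.8% of all genes, with a median of 0.29. After scaling 4 were higher and 5 lower, beside 26.1% and 29.2% of all genes, with a median of -0.37. Map2k3, which activates p38, was at 18.6 ± 2.30 TPM in control oligo and 3.64 ± 0.634 TPM in sham cortex (2.08, adjusted p = 3.48e-05, 1.51 after scaling). The p38 genes Mapk12 (1.64, adjusted p = 0.00151, 1.19 after scaling), Mapk14 (1.46, adjusted p = 0.00282, 0.81 after scaling) and Mapk11 (1.26, adjusted p = 0.000512, 0.61 after scaling) were called higher in control oligo cortex. Map2k6 of the same list went the other way and was called lower there (-0.68, adjusted p = 0.0266, -1.28 after scaling). In knockdown cortex Mapk14 was not called (1.11, adjusted p = 0.0569, 0.42 after scaling), with knockdown replicate 3 at 21.4 TPM, inside the sham range. In knockdown cortex against sham 3 were higher and 1 lower, beside 52.7% and 12.5% of all genes.

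Between knockdown and control oligo, 0 of the 86 genes were called. The lowest unadjusted p-values belonged to Ccnd3, a D-type cyclin, at 26.2 ± 4.44 TPM in knockdown and 17.2 ± 2.30 TPM in control oligo cortex (0.58, limma unadjusted p = 0.0198), and to Rps27l, at 60.1 ± 10.6 and 43.9 ± 2.96 TPM (0.43, limma unadjusted p = 0.0354). Trp53 stood at 31.0 ± 0.655 TPM in knockdown and 26.5 ± 4.72 TPM in control oligo cortex (0.23, limma unadjusted p = 0.218).

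**Figure D5:**
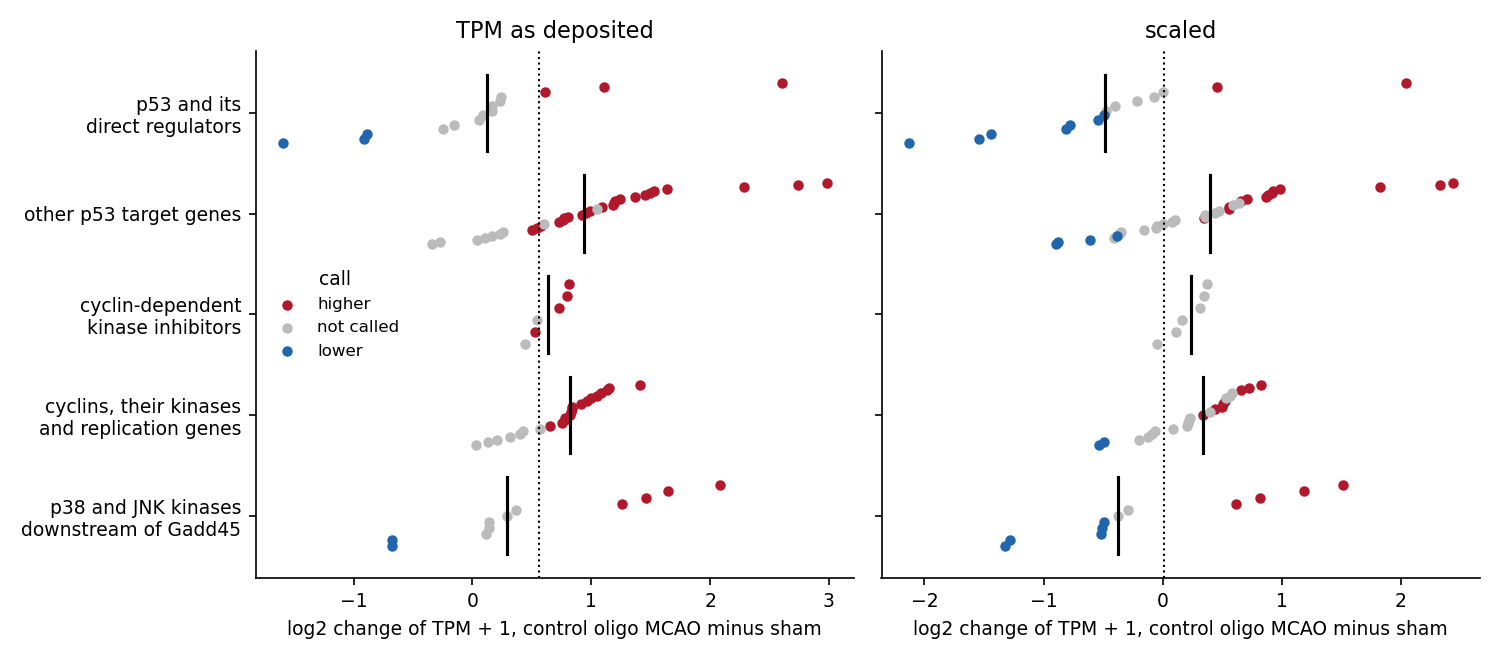
Log2 change in control oligo cortex against sham of every gene kept in the 5 lists, as deposited (left) and after scaling (right), with 1 point per gene coloured by its call, a bar at the list median and a dotted line at the median of all genes. Other p53 target genes have a median of 0.94 as deposited and p53 and its direct regulators 0.12, beside 0.56 for all genes.

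By transcript, Cdkn1a came almost wholly from Cdkn1a-201, which begins beside the main start shown above. It held 97.7 to 98.8% of the gene's TPM in knockdown, 97.2 to 99.0% in control oligo and 92.6 to 96.0% in sham libraries. Cdkn1a-202, which begins at the upstream start with the full p53 site, was at 0.836, 1.08 and 1.78 TPM in knockdown libraries, 0.209, 0.487 and 0.712 TPM in control oligo libraries and 0, 0 and 0.167 TPM in sham libraries. The knockdown libraries were above the control oligo libraries for this minor form, at levels around 1 TPM. How many of all transcripts lay so was not counted, while 3.60% of all genes did. StringTie estimates of such low forms are uncertain, and no difference is read from these values.
Sesn1 was split between 2 starts. Sesn1-202, from the upstream start, was at 28.2, 20.7 and 21.9 TPM in knockdown libraries, 40.5, 24.3 and 8.35 TPM in control oligo libraries and 4.72, 8.94 and 6.84 TPM in sham libraries. Sesn1-201, from the downstream start whose window holds a p53 half-site, was at 20.3, 23.9 and 23.5 TPM in knockdown libraries, 27.3, 18.9 and 35.1 TPM in control oligo libraries and 25.2, 21.4 and 15.9 TPM in sham libraries. On the deposited scale the gene's rise thus sat in the upstream form, except in control oligo replicate 3, and the downstream form overlapped between all groups. After scaling the rise of the gene was not called, and no scaled values of its single forms are given.
The Mdm2 forms differed between libraries of a group. Mdm2-209, annotated as a target of nonsense-mediated decay, held 69.5, 72.5 and 59.8% of Mdm2 TPM in knockdown, 58.0, 63.5 and 71.0% in control oligo and 0, 43.0 and 0% in sham libraries. The protein-coding form Mdm2-201 was at 2.66, 0.178 and 3.19 TPM in knockdown and 0.460, 0.0992 and 0.122 TPM in control oligo libraries. In sham libraries it was at 8.38, 0.128 and 8.42 TPM. Mdm2-202, also protein-coding, was at 0, 1.95 and 0.258 TPM in knockdown and 0.275, 2.10 and 0.973 TPM in control oligo libraries. Its sham values were 0.644, 1.67 and 0.456 TPM. The summed rise of Mdm2 was thus not seen in either of these forms. The jump between 0 and 43.0% within sham shows how far the estimates for single forms can differ between libraries of a group.

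The members' patterns were also compared with those of 13965 of the genes kept, with clone-named genes left out. Nearness was the root mean square difference between log2(TPM + 1) profiles over the 9 libraries, each profile centred on its mean. The genes nearest to Cdkn1a were the mitochondrially encoded mt-Tp (0.24), mt-Nd3 (0.43) and mt-Tw (0.45). Mitochondrial genes held 22.6 to 28.1% of TPM in knockdown, 24.8 to 28.9% in control oligo and 0.277 to 0.577% in sham libraries, and the part of this difference in the Cdkn1a values was not tested. Gadd45b and Gadd45g were each other's nearest gene (0.22). Next to Gadd45b came the small heat shock protein Hspb1 (0.25), at 83.3 ± 12.5 TPM in knockdown, 78.4 ± 19.5 TPM in control oligo and 4.53 ± 1.49 TPM in sham cortex, and the co-chaperone Bag3 (0.25). Next to Gadd45g came the glutathione transferase Gstp2 (0.26), listed at 0 in all sham libraries, and the transcription factor Maff (0.27). The nearest genes to Gadd45a were Tnfrsf4 (0.16), Ppp2r3d (0.20) and Tmc6 (0.21).

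Several properties of the libraries moved with the comparison with sham. Aligned sequence came to 4400 to 4832 Mb in knockdown, 4478 to 4916 Mb in control oligo and 2702 to 2875 Mb in sham libraries, and Cdkn1a had 647 to 769 kb aligned in knockdown, 700 to 769 kb in control oligo and 14.4 to 22.8 kb in sham libraries. Small structural RNAs held 0.705 to 0.862% of TPM in knockdown, 0.720 to 0.853% in control oligo and 62.0 to 66.4% in sham libraries. Each transcript was cut into 3 equal stretches, and the log2 ratio of coverage in the 5′ stretch to that in the 3′ stretch had a median over 3049 main transcripts of -0.84 to -0.70 in knockdown, -1.04 to -0.73 in control oligo and -0.10 to -0.042 in sham libraries. The part of these differences in the members' values, or in those of their single transcripts, was not tested. Read length may differ as well between sham and MCAO libraries, since the making of the sham libraries is not given.

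The tissue label was met by the markers of cortical neurons, which summed to 2969 to 4779 TPM in knockdown, 3754 to 4297 TPM in control oligo and 2468 to 2811 TPM in sham libraries. Neutrophil markers, 7 of 8 kept, summed to 77.3, 94.4 and 1433 TPM in knockdown (lowest, middle and highest), 31.4, 337 and 343 TPM in control oligo and 2.59, 4.43 and 7.78 TPM in sham libraries, and Ly6g and Retnlg were at 0 in all sham libraries. Knockdown replicate 4 held the highest neutrophil sum and also the lowest neuronal sum of the 6 MCAO libraries. Cdkn1a in that library, at 135 TPM, was the lowest of the 6 MCAO libraries, and without it the change of Cdkn1a in knockdown against sham was 4.90. Choroid plexus markers summed to 60.6 TPM in knockdown replicate 3 and to at most 3.57 TPM in the other libraries. Microglial markers summed to 212 to 397 TPM in knockdown, 204 to 227 TPM in control oligo and 114 to 134 TPM in sham libraries. The part of cell makeup in the members' values was not tested, and in bulk tissue a change in the number of cells of a type and a change in RNA per cell cannot be told apart.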

How the data were processed

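RNA sequencing of 9 mouse cortex libraries was analysed from transcript tables made by StringTie 1.3.4d in estimation mode against a merged annotation, with no strand option, per the file headers. Alignment used HISAT2 2.0 to GRCm38 (mm10), per the submitters' processing notes. The 6 MCAO libraries were poly(A)-selected, stranded and read as pairs, per the labels' protocols; the making of the sham libraries is not given in the sources used here. The authors deposited TPM, FPKM and coverage per transcript, the coverage also per exon, with no read counts, so no counting intervals are given.

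TPM was summed per gene ID, and a gene was kept if it reached a TPM of 1 or more in 3 or more libraries. Only the 6 libraries compared entered a fit, which used limma 3.58.1 with a mean trend (R 4.3.3, two-sided) on log2(TPM + 1), which understates changes of low genes. P-values were adjusted by Benjamini-Hochberg over all genes kept, and an adjusted p under 0.05 was called. The fit was tested on simulated data. Alternatives were a pseudocount of 0.1, median-ratio scaling (each library is divided by the median, over genes, of its ratio to a geometric-mean library), TPM over nuclear protein-coding genes, FPKM, no filter, 1 fit on all 9 libraries, a replicate block, each library left out in turn and, added after seeing the data, coverage of the 3′ stretch of each transcript cut into 3. The 10 members and the gene lists were chosen with earlier results of these data known. Of each list, up to 4 genes with the lowest p in control oligo against sham and up to 2 in knockdown against control oligo could be named, and for Cdkn1a and the Gadd45 genes the 3 of nearest pattern; clone-named genes were left out of the pattern search.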

Additional observations from a re-analysis of the deposited data

How the results depend on the processing

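Cdkn1a, Gadd45b, Gadd45g, Phlda3 and Mdm2 were called higher against sham, in both MCAO groups, under all 8 alternatives and each library left out; Cdkn1a ranged over the 8 from 4.21 to 5.16 in control oligo and from 4.14 to 5.13 in knockdown cortex. Members called higher numbered 7 to 8 with 1 library left out. Members called lower were 2, where the deposited TPM gave 0 in knockdown and 1 in control oligo cortex, under median-ratio scaling, protein-coding TPM, FPKM and the 3′ stretch, and 0 to 1 with 1 library left out in control oligo cortex. Sesn1 and Gadd45a lost their calls under these 4 settings; the cause was not tested. For the 4 settings in that order, Trp53inp1 turned to -0.21, -0.39, -0.12 and -0.28 in knockdown and to -0.31, -0.46, -0.22 and -0.37 in control oligo cortex, Zmat3 to -0.61, -0.80, -0.51 and -0.75 in knockdown and to -0.49, -0.64, -0.41 and -0.63 in control oligo cortex, and Sesn1 in knockdown cortex to -0.15 with protein-coding TPM. Zmat3 in knockdown cortex ranged from -0.019 to 0.15 with 1 library left out.

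Pathway genes called higher were 27, 19, 25 and 20 of 86 in knockdown (50 as deposited, 41 to 55 with 1 library left out) and 27, 18, 27 and 19 in control oligo cortex (50, 43 to 52). Those called lower were 13, 21, 13 and 7 in knockdown (4) and 18, 22, 15 and 13 in control oligo cortex (5, 2 without the filter, 2 to 5 with 1 library left out).

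Between knockdown and control oligo no member was called under any setting. With 1 library left out, Cdkn1a ranged from -0.068 to 0.018, Mdm2 from -0.058 to 0.32, Trp53inp1 from -0.13 to 0.41, Sesn1 from -0.24 to 0.081, Zmat3 from -0.18 to 0.041, Gadd45a from -0.013 to 0.25 and Gadd45g from -0.045 to 0.26. In deviations from the group means, same-numbered libraries correlated at 0.23 and 0.074 (knockdown with control oligo), -0.06 and 0.069 (knockdown with sham) and -0.03, -0.071 and 0.12 (control oligo with sham). So few pairs cannot decide whether the numbers pair samples, and the main fits used no pairing. With the replicate block Cdkn1a was 0.067 and Sesn1 0.094 between knockdown and control oligo, members called higher stayed at 7 against sham, and pathway genes called higher were 56 in knockdown and 51 in control oligo cortex. With 3 libraries a group, the intervals given for each member are for that gene alone, without adjustment over genes. A call needed an adjusted p under 0.05, so Gadd45b went uncalled although its interval as deposited lay wholly above no change. The intervals therefore do not bound the changes that could be missed.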
